A study of Homo sapiens with 27 samples.

Results

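The genes described here are 9 complement components and regulators out of the 57165 genes measured: C1R, C1S, C3, CFB, CFI, SERPING1, CD46, CD55 and CD59. They form a named list that was selected on measured values of these libraries, namely that the level of C1R was higher in cells carrying the vector in both cell lines and lower again in MDA-MB-231 cells with gRNAs against ZEB1. Values from those vector and MDA-MB-231 targeting contrasts are therefore given as a description with no p-value. Counts of members past a test's threshold there stand beside the share of all genes, and nothing is read from them. Adjusted p-values are given only for other contrasts. ZEB1 is a transcription factor that represses epithelial genes. The study asked what follows from its silencing in SUM159 and MDA-MB-231, human triple negative breast cancer lines of mesenchymal type.

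Silencing used dCas9-KRAB, a Cas9 that cannot cut DNA joined to a repressor domain, which gRNAs direct to the ZEB1 promoter. The 27 RNA-seq libraries formed 9 groups of 3. SUM159 cells were untransduced (wild type, in run 1 and, as separate samples, in run 2), carried dCas9-KRAB without a gRNA (No gRNA), carried it with gRNA 4, or carried it with the pool of 4 gRNAs (All gRNA). MDA-MB-231 cells were wild type, No gRNA, set 1 or set 2. Sets 1 and 2 are the gRNA 4 and pooled gRNA libraries of MDA-MB-231, but the labels and the column names of these 6 libraries name opposite conditions, so neither set is given a gRNA here. All cells with dCas9-KRAB had been transduced with a lentivirus and selected with puromycin, and wild type cells had not, so that the vector, the transduction and the selection cannot be told apart in a comparison with wild type. The study's methods describe the replicates as individual clones, and p-values measure the spread between these libraries. Every MDA-MB-231 library was in run 2, and the transduced SUM159 libraries were in run 1. The runs are taken from the prefix of the column names and from labels that name run 2, which do not say what a run covers.

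Library totals ranged from 15461200 to 21473757 estimated counts. ZEB1 itself averaged 69.7 to 110.1 CPM (counts scaled to 1000000 per library, with TMM-scaled totals) in the wild type and No gRNA groups and 0.733 to 5.36 CPM in the 4 targeted groups. ESR1 and PGR, the hormone receptor genes that triple negative lines lack, were at most 0.320 CPM on average in any group, the mesenchymal gene VIM was between 1326 and 4055 CPM, and ERBB2 was between 42.0 and 63.8 CPM. Markers of cells that make much complement in the body were mostly near 0. Of 8 hepatocyte markers, 4 to 7 had no more than 3 counts in any library of a given group, and 4 to 6 of 8 monocyte and macrophage markers did. The summed level of the hepatocyte list ranged from 4.12 CPM in SUM159 wild type cells of run 2 to 123 CPM in set 1, and nearly all of it was SERPINA1 (alpha-1 antitrypsin), while ALB (albumin) reached at most 8.12 counts in a library. In SUM159 of run 1 the sum was 8.88 to 10.9 CPM in wild type, 15.8 to 21.6 CPM in No gRNA, 61.8 to 67.5 CPM in All gRNA and 47.3 to 51.8 CPM in gRNA 4. In MDA-MB-231 the sum was 24.6 to 30.0 CPM in wild type, 82.7 to 87.7 CPM in No gRNA, 109 to 123 CPM in set 1 and 51.4 to 56.8 CPM in set 2. The monocyte list summed to 8.57 to 33.7 CPM in SUM159 and, in the same order of MDA-MB-231 groups, to 104 to 109.9, 166 to 181, 159 to 162 and 66.6 to 69.1 CPM. Most of that was CD68, a lysosomal protein, with TYROBP at 0 counts in all 27 libraries and SPI1 at no more than 1.88. The 6 lymphocyte markers summed to at most 0.883 CPM. In bulk RNA, fewer cells that express a gene and less RNA per cell cannot be told apart.

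Complement is a cascade of plasma proteases and adaptor proteins that marks and lyses targets. C1R and C1S are the serine proteases of the C1 complex, which opens the classical pathway, and SERPING1 (C1 inhibitor) inactivates both. C3 is the central component on which the pathways converge, and CFB (factor B) supplies the catalytic subunit of the alternative pathway C3 convertase. CFI (factor I) is the protease that degrades activated C3 and C4 fragments, with CD46 (membrane cofactor protein) as one of its cofactors on host cells. CD55 (decay accelerating factor) dissociates the C3 convertases, and CD59 blocks assembly of the membrane attack complex. The liver makes most of the plasma proteins, but many tissues and tumour cells make some of them, and interferons and inflammatory cytokines are known inducers of C1R, C1S, C3 and CFB.

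The members lie on 6 chromosomes (GRCh38, GENCODE annotation). C1R (ENSG00000159403, chromosome 12, 7080214 to 7092540, minus strand) and C1S (ENSG00000182326, chromosome 12, 6988259 to 7071032, plus strand) are neighbours. C1R overlaps C1RL on its own strand, and C1S overlaps LPCAT3 on the other. CD55 (ENSG00000196352, 207321519 to 207386804) and CD46 (ENSG00000117335, 207752037 to 207795513) share the plus strand of chromosome 1. CFB (ENSG00000243649, chromosome 6, 31945650 to 31952086, plus strand) overlaps C2, and C3 (ENSG00000125730, chromosome 19, 6677704 to 6730562, minus strand) overlaps GPR108. Reads were assigned to transcripts by Salmon, and its strand setting is not given in the sources used here. Counts are uncertain to that extent where genes overlap on opposite strands, as C1S and LPCAT3, and CD46 and MIR29B2CHG, do. All members but CD55 and SERPING1 overlap annotated genes on their own strand, which a strand setting does not separate. Their counts are uncertain there too. CD59 (ENSG00000085063, chromosome 11, 33703010 to 33736479, minus strand), SERPING1 (ENSG00000149131, chromosome 11, 57597387 to 57619171, plus strand) and CFI (ENSG00000205403, chromosome 4, 109731008 to 109802150, minus strand) complete the list.

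RefSeq promoter sequences (GRCh38.p14) were matched for 6 of the 9 members, C1R, CFB, CFI, CD46, CD55 and CD59, in 11 windows of 250 bases before a start site. C1S, C3 and SERPING1 had no entry. The C1R and CFB windows at the start site of the canonical transcript are shown because, of the members with an entry that passed the filter on low counts, these had the largest log2 fold changes between No gRNA and wild type cells in both lines, and each is shown up to the first base that GENCODE gives to an exon of the gene. Capitals mark matches to CACCTG (the E-box form bound by ZEB1, read as CAGGTG on the other strand) and to GAAA, 2 bases of any kind, GAAA (a form of the interferon-stimulated response element, read as TTTC, 2 bases, TTTC on the other strand).
C1R, chr12:7092541-7092695, minus strand: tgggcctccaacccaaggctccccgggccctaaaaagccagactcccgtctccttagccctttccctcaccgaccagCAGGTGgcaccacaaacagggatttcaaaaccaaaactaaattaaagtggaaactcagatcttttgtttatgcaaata
CFB, chr6:31945845-31945974, plus strand: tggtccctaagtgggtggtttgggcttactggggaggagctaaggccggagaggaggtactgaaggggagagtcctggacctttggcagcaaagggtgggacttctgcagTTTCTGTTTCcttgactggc

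Counted back from the start site, the C1R E-box lay at -173 to -168 and the CFB response element at -140 to -131. The unprinted remainder of the CFB window held an E-box at -51 to -46, a match to TTCNNNGAA (the core of the STAT site, the same on both strands) at -92 to -84 and a kappaB match at -112 to -103. Over all 35116 RefSeq windows of this length, 17.5% held the E-box, 3.02% the response element, 6.57% the STAT core and 9.96% a kappaB match. None of these motifs overlapped another in the 2 windows shown. The CFI window, the CD55 window and both CD46 windows held none of the 4 motifs. The window of a second C1R start site held a STAT core at -86 to -78. One of the 4 CD59 windows held an E-box, and 2 overlapping ones shared the sequence TTCTCAGAA, which matches the STAT core. These matches describe letters in the windows and say nothing of binding.

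Levels between genes were compared as CPM per kb of the canonical transcript. In SUM159 wild type cells of run 1, C3 ranked first at 381 CPM per kb, followed by CD55 at 110, CD59 at 53.7 and CD46 at 40.4 CPM per kb, with C1R at 1.45, C1S at 1.26 and CFB at 0.647 CPM per kb. In MDA-MB-231 wild type cells the order began with CD59 at 77.0 CPM per kb, CD55 at 53.3, CD46 at 51.6 and C3 at 23.2 CPM per kb. In both lines, then, the membrane regulators were well expressed and the C1 proteases and CFB were low before transduction. CFI and SERPING1 ranked last or next to last in every SUM159 group.

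**Figure D1:**
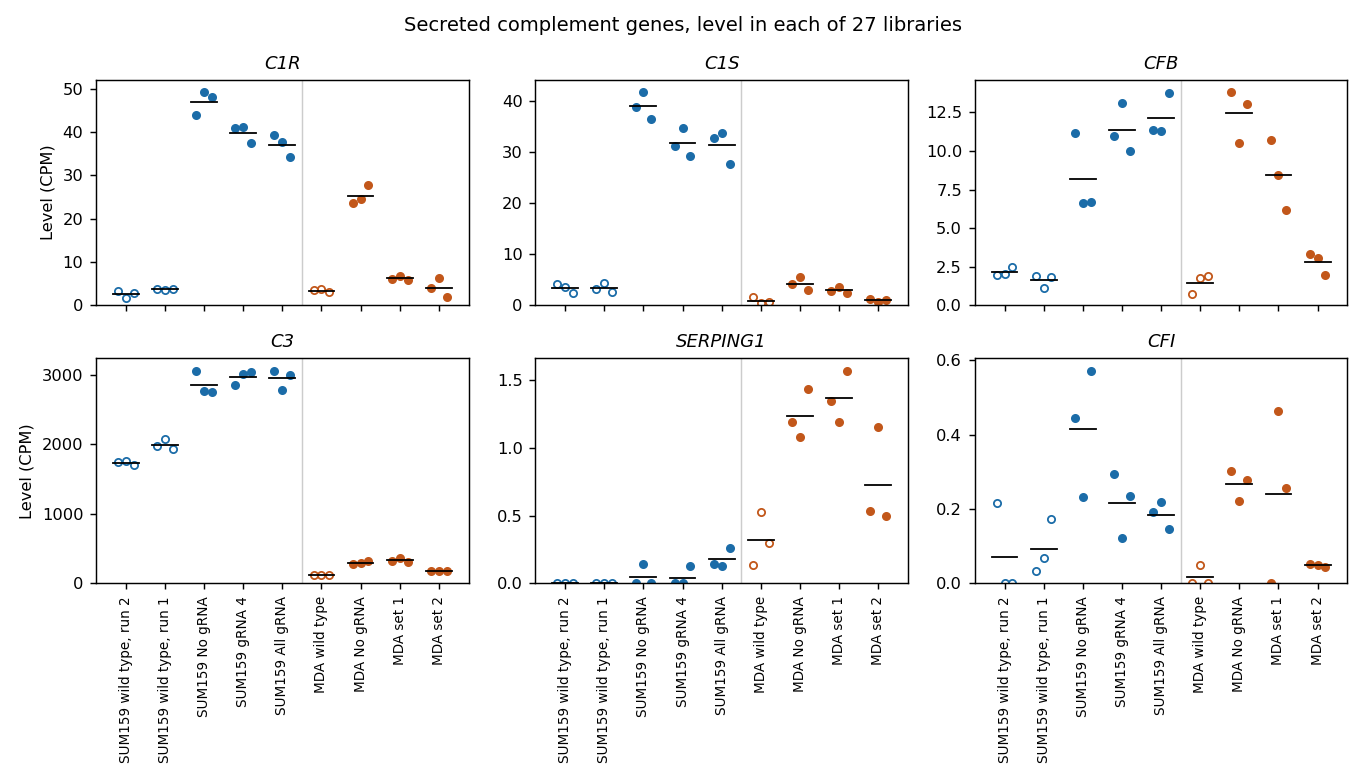
Level in CPM (TMM-scaled, linear axes from 0) of the 6 secreted members in each of the 27 libraries. Points are libraries (open for wild type, filled for transduced cells, blue for SUM159 and orange for MDA-MB-231, written MDA) and black lines are group means of 3 libraries. C1R averaged 3.61 CPM in SUM159 wild type cells of run 1 and 47.0 CPM in No gRNA cells, and 25.3 CPM in MDA-MB-231 No gRNA cells against 6.24 and 3.99 CPM in sets 1 and 2.

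C1R was low in untransduced cells, high in all transduced SUM159 groups, and high in MDA-MB-231 only in the No gRNA group. SUM159 wild type libraries held 3.51, 3.63 and 3.70 CPM in run 1, and No gRNA libraries held 43.8, 48.1 and 49.1 CPM. The gRNA 4 libraries were at 37.4, 40.9 and 41.2 CPM and the All gRNA libraries at 34.2, 37.7 and 39.3 CPM. Every transduced SUM159 library thus stood above every wild type library, and every targeted library lay below the lowest No gRNA library. In MDA-MB-231 the wild type libraries held 2.97, 3.44 and 3.64 CPM and the No gRNA libraries 23.6, 24.6 and 27.7 CPM. Set 1 libraries were at 5.87, 6.12 and 6.74 CPM, and set 2 libraries at 1.82, 4.01 and 6.15 CPM. All libraries of set 1 exceeded the wild type range, whereas set 2 spread across it.

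C1S, the partner protease, followed C1R closely in SUM159 and at a far lower level in MDA-MB-231. In SUM159 it rested at 2.65, 3.19 and 4.28 CPM in wild type cells of run 1 and reached 36.4, 38.7 and 41.6 CPM with No gRNA. Its gRNA 4 values were 29.2, 31.2 and 34.6 CPM and its All gRNA values 27.6, 32.7 and 33.6 CPM. Both targeted SUM159 groups lay wholly below No gRNA and wholly above wild type. MDA-MB-231 wild type cells gave 0.396, 0.554 and 1.50 CPM, and No gRNA cells 2.95, 4.11 and 5.46 CPM. Set 1 held 2.29, 2.79 and 3.48 CPM, overlapping No gRNA, and set 2 held 0.577, 1.07 and 1.15 CPM, inside the wild type range. The lowest of these levels rest on few reads, since the wild type libraries of MDA-MB-231 held 6.88 to 24.9 estimated counts of C1S.

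The ratio of C1S to C1R, each per kb, was higher in every SUM159 library than in every MDA-MB-231 library. It averaged 0.870 in SUM159 wild type cells of run 1 and 0.769, 0.737 and 0.783 in the No gRNA, gRNA 4 and All gRNA groups, while both genes stood at 9.29 to 13.0 times their wild type means in those 3 groups. In SUM159 wild type cells of run 2 it averaged 1.31 and ranged from 0.795 to 2.03. In MDA-MB-231 the ratio averaged 0.226 in wild type cells, 0.155 with No gRNA, 0.422 in set 1 and 0.298 in set 2. The highest MDA-MB-231 library, at 0.543, lay below the lowest SUM159 library, at 0.664. Apart from wild type cells the lines were in different runs, so line and run cannot be told apart for the transduced groups. Within MDA-MB-231, all 3 set 1 libraries, at 0.363 to 0.479, exceeded all 3 No gRNA libraries, at 0.0986 to 0.206, with C1R lower in set 1 and C1S overlapping.

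**Figure D2:**
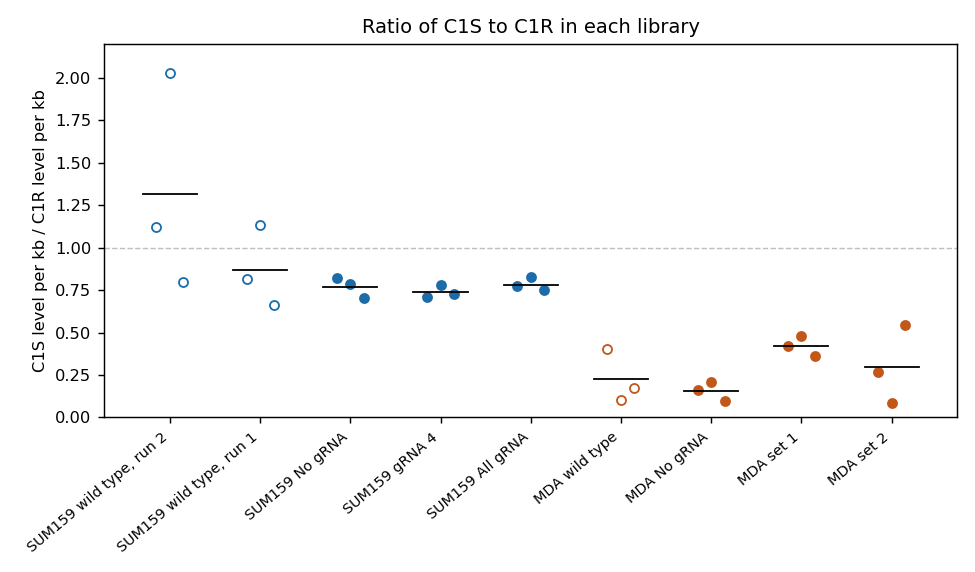
Ratio of the C1S level per kb to the C1R level per kb (linear axis, no unit) in each library, with points for libraries (open for wild type, blue for SUM159, orange for MDA-MB-231, written MDA), black lines for means of 3 and a dashed line at 1. Every MDA-MB-231 library was at or below 0.543, and every SUM159 library at or above 0.664.

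CFB was higher in all transduced SUM159 libraries than in wild type cells, and in MDA-MB-231 it stood apart in 3 steps, No gRNA with set 1, set 2, and wild type. In SUM159 wild type cells it was at 1.11, 1.80 and 1.91 CPM in run 1, and No gRNA libraries held 6.61, 6.70 and 11.1 CPM. The gRNA 4 libraries held 10.0, 11.0 and 13.1 CPM and the All gRNA libraries 11.3, 11.4 and 13.8 CPM. The highest No gRNA library thus lay inside the gRNA 4 range and just under the All gRNA range, and the other two stood below both. MDA-MB-231 wild type libraries were at 0.741, 1.72 and 1.91 CPM and No gRNA libraries at 10.6, 13.1 and 13.8 CPM. Set 1 spanned 6.15, 8.45 and 10.7 CPM and overlapped No gRNA, and set 2, at 1.96, 3.07 and 3.30 CPM, lay below both and just above wild type.

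C3 had the highest level per kb of all members in every SUM159 group, and its folds were smaller than those of C1R, C1S and CFB. In run 1, SUM159 wild type libraries had 1935, 1975 and 2076 CPM and No gRNA libraries 2758, 2766 and 3055 CPM. With gRNA 4 it was 2853, 3013 and 3045 CPM and with All gRNA 2791, 3000.0 and 3059.6 CPM, so all transduced SUM159 groups overlapped one another and none overlapped wild type. MDA-MB-231 held 114, 125 and 126 CPM in wild type cells and 276, 301 and 320.3 CPM with No gRNA. Set 1, at 314, 317 and 367 CPM, overlapped No gRNA, and set 2, at 173, 183 and 183 CPM, lay between wild type and No gRNA.

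SERPING1, the inhibitor of C1R and C1S, had no more than 3 counts in any library of 4 of the 5 SUM159 groups, both wild type groups being at 0, and reached at most 4.82 counts in All gRNA. MDA-MB-231 had more of it, at 0.138, 0.301 and 0.530 CPM in wild type cells, 1.08, 1.19 and 1.44 CPM with No gRNA, 1.19, 1.35 and 1.57 CPM in set 1 and 0.50, 0.531 and 1.15 CPM in set 2. Set 2 thus straddled the gap between wild type and the other transduced groups. CFI did not pass the filter on low counts in any comparison, and no library held more than 10.2 counts of it. No fold is given for CFI, nor for SERPING1 in SUM159.

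**Figure D3:**
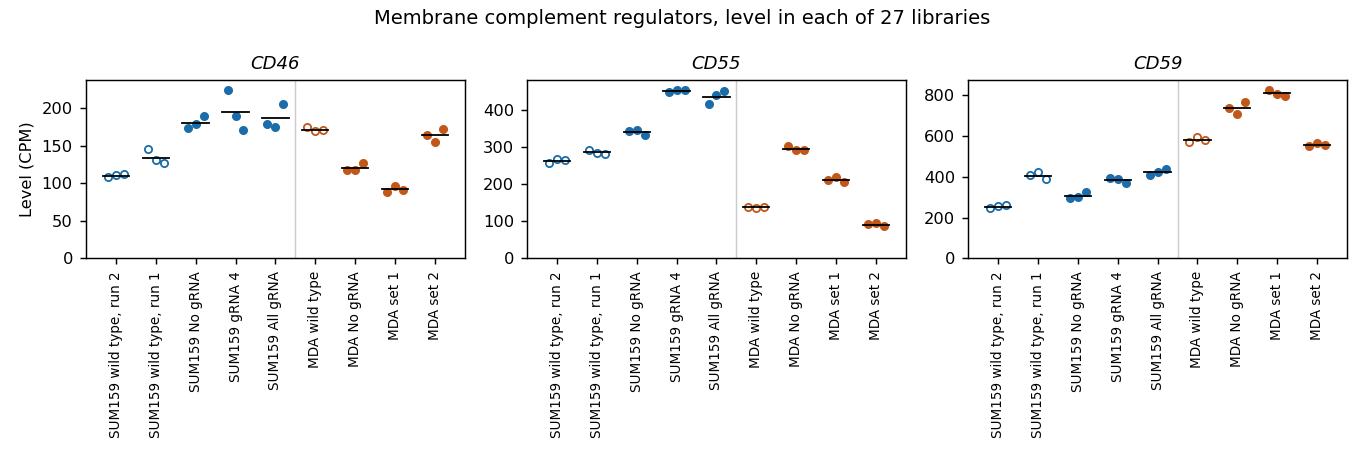
Level in CPM (linear axes from 0) of the 3 membrane regulators in each of the 27 libraries, with open points for wild type, filled points for transduced cells, blue for SUM159, orange for MDA-MB-231 (MDA) and black lines for means of 3 libraries. CD55 averaged 294 CPM in MDA-MB-231 No gRNA cells, 211 CPM in set 1 and 91.1 CPM in set 2, and 339 CPM in SUM159 No gRNA cells against 451 and 434 CPM with gRNA 4 and All gRNA.

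The membrane regulators varied less than the C1 proteases, and not in one direction. CD55 held 281, 284 and 292 CPM in SUM159 wild type cells of run 1, 331, 342 and 346 CPM with No gRNA, 447, 453 and 453 CPM with gRNA 4 and 414, 439 and 450.3 CPM with All gRNA. The order wild type, No gRNA, targeted was kept without overlap in SUM159. MDA-MB-231 libraries held 136, 138 and 139 CPM in wild type cells, 291, 291 and 301 CPM with No gRNA, 205, 211 and 218 CPM in set 1 and 87.3, 91.7 and 94.2 CPM in set 2. No 2 of these 4 groups overlapped, and set 2 was below wild type.

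Among the SUM159 groups of run 1 CD59 was lowest with No gRNA, and in MDA-MB-231 it was lowest in set 2. SUM159 wild type cells of run 1 held 389, 407 and 422 CPM, No gRNA cells 294, 299 and 324 CPM, gRNA 4 cells 369, 390.0 and 393 CPM and All gRNA cells 410.4, 426 and 439 CPM. Both targeted SUM159 groups overlapped wild type and stood above No gRNA. In MDA-MB-231, wild type cells held 571, 582 and 594 CPM, No gRNA cells 708, 737 and 765 CPM, set 1 794, 808 and 826 CPM and set 2 551, 558 and 564 CPM. Set 1 lay above No gRNA and set 2 below wild type, without overlap.

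CD46 was higher in transduced than in wild type SUM159 cells and lower in No gRNA and set 1 than in wild type MDA-MB-231 cells. In SUM159 it was at 126, 130.4 and 145 CPM in wild type cells of run 1, 173, 179 and 189 CPM with No gRNA, 171, 189.5 and 224 CPM with gRNA 4 and 175, 179 and 206 CPM with All gRNA, so that the 3 transduced groups overlapped. In MDA-MB-231 it was at 169, 170.2 and 175 CPM in wild type cells, 117, 117 and 127 CPM with No gRNA, 88.0, 91.2 and 96.6 CPM in set 1 and 155, 165 and 172 CPM in set 2. Set 1 was the lowest group and set 2 overlapped wild type.

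The first comparison set No gRNA cells against wild type cells of the same run and asked what the vector without a gRNA does. It is one of the contrasts used to choose the list, and the values are a description. In SUM159, 7 members passed the filter on low counts. The log2 fold change was 3.68 ± 0.12 (SE from the limma fit) for C1R, 3.53 ± 0.18 for C1S and 2.32 ± 0.31 for CFB, and these 3 were called by TREAT, limma's test against a log2 fold change of 1. Among all genes tested, 1.53% were called. The log2 fold change was 0.51 for C3, 0.42 for CD46 and 0.24 for CD55, and CD59 fell by 0.42 on the log2 scale. By the moderated test against 0, 6 members were higher and 1 was lower, beside 21.0% and 21.9% of all genes. The median over the 7 members was 0.51 and over all genes 0.02.

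In MDA-MB-231, where 8 members passed the filter, CFB had the largest log2 fold change at 3.09 ± 0.36, followed by C1R at 2.85 ± 0.27, and TREAT called both, beside 3.60% of all genes. C1S stood at 2.45 ± 0.45, SERPING1 at 1.93 ± 0.45, C3 at 1.24 ± 0.08 and CD55 at 1.03 ± 0.04 on the log2 scale. CD59 was at 0.28, and CD46 fell by 0.56. The moderated test called 7 members higher and 1 lower, beside 26.2% and 27.6% of all genes. The median log2 fold change was 1.59 over the members and 0.00 over all genes.

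In both vector comparisons C1R, C1S and CFB had the largest log2 fold changes of the members tested. The rise of C1R was a condition for choosing the list, so nothing is read from this order. CD46 and CD59 were the members whose sign against wild type cells of the same run differed between the lines. The SUM159 No gRNA libraries of CD59 lay above those of wild type cells in run 2, at 245 to 262 CPM. Other complement genes, a list of 44 that holds the remaining components, regulators and receptors, are mostly silent in these lines, and 11 passed the filter in SUM159 and 12 in MDA-MB-231. In SUM159 the moderated test called 1 of the 11 higher and 0 lower, namely C1RL (C1r-like protease), whose locus overlaps C1R, at 27.6 CPM in wild type and 59.8 CPM in No gRNA cells. In MDA-MB-231 it called 5 higher and 2 lower, among them CFP (properdin, which stabilises the alternative pathway convertase) at 14.9 and 39.9 CPM, C1RL at 2.83 and 7.06 CPM, and, in the other direction, C4BPB (a chain of C4b-binding protein) at 34.4 and 16.9 CPM. C4B, at 0.289 and 0.713 CPM, was also among those higher, and its counts cannot be separated reliably from those of its near-identical copy C4A. TREAT called 0 of these genes in either line.

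Lists of interferon response genes and of NF-kappaB and acute phase genes, 20 genes each and all tested, are given beside the members because cytokines of both kinds are known to induce complement genes. In the SUM159 vector comparison 13 interferon genes were higher and 1 was lower by the moderated test, with IFIT1 the highest at a log2 fold change of 4.81, and 4 genes of the NF-kappaB list were higher and 10 lower. In MDA-MB-231 the counts were 10 higher and 2 lower for interferon genes, led by GBP2 at 3.00, and 18 higher and 1 lower for the NF-kappaB list, led by CCL20 at 2.78. The shares of all genes called higher and lower were 21.0% and 21.9% in SUM159 and 26.2% and 27.6% in MDA-MB-231. The NF-kappaB list thus had a median log2 fold change of -0.31 in SUM159 and 1.33 in MDA-MB-231. Their part in the complement values was not tested.

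**Figure D4:**
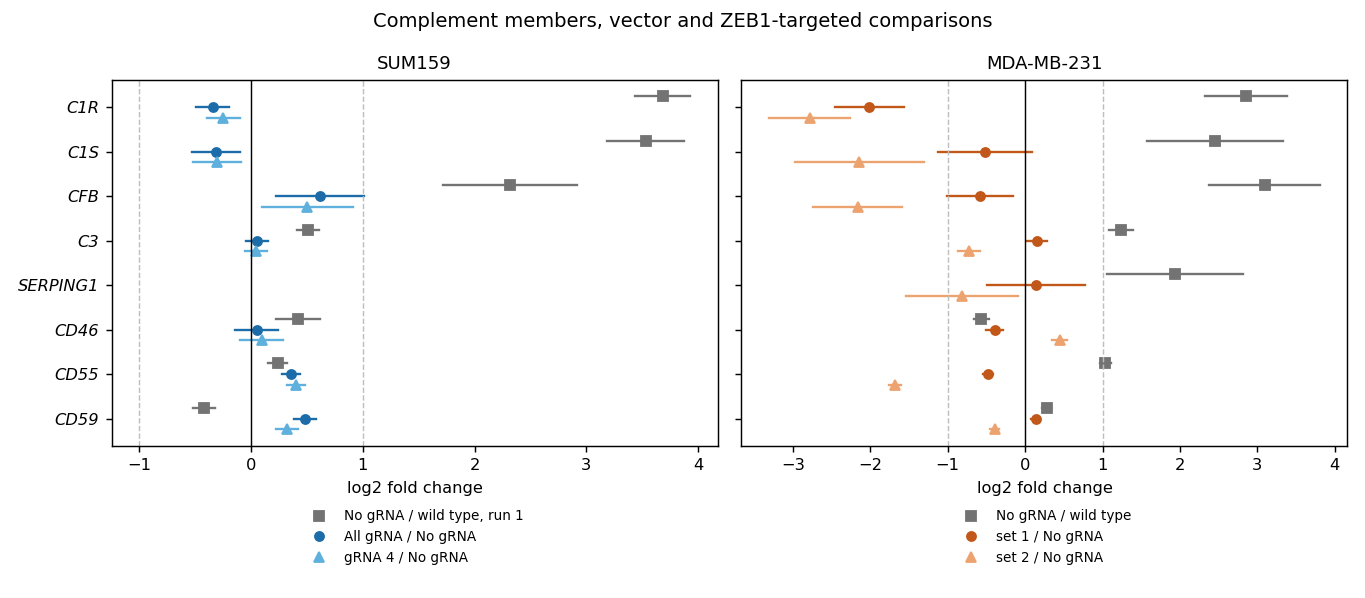
Log2 fold change (linear axis of log2 units) of the members tested in each line, with No gRNA over wild type as squares and each ZEB1-targeted group over No gRNA as circles and triangles. Horizontal lines are intervals of 1.96 SE and dashed lines mark a log2 fold change of 1 either way. C1R was at 3.68 and 2.85 in the vector comparisons, at -0.34 and -0.25 in the SUM159 targeted comparisons and at -2.01 and -2.78 in sets 1 and 2 of MDA-MB-231.

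The next comparisons set ZEB1-targeted SUM159 cells against No gRNA cells. The contrasts were not used to choose the list, but the high level of C1R in the same No gRNA libraries was, so C1R is given without a p-value. The membrane regulators CD55 and CD59 were above No gRNA in both targeted groups, and CD46 was not called in either. CD59 was at 0.752 times its wild type mean with No gRNA, 1.05 times with All gRNA and 0.946 times with gRNA 4. Its targeted levels were thus near wild type, whereas CD55 was at 1.52 and 1.58 times its wild type mean with All gRNA and gRNA 4. With All gRNA, the log2 fold change of CD59 was 0.48 ± 0.05 (adjusted p = 8.04e-05, limma moderated test) and that of CD55 0.36 ± 0.04 (adjusted p = 0.000143, limma). C1R was at -0.34 ± 0.08 on the log2 scale, all 3 All gRNA libraries being below the No gRNA libraries. By the moderated test 2 members were called higher and 1 lower, beside 5.93% and 4.89% of all genes, and nothing is read from the lower one, C1R. The hepatocyte marker sum, nearly all SERPINA1, was also higher in every targeted SUM159 library than in every No gRNA library, and its part in these values was not tested.

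With gRNA 4, CD55 had a log2 fold change of 0.40 ± 0.04 (adjusted p = 5.85e-05, limma moderated test) and CD59 of 0.32 ± 0.05 (adjusted p = 0.00158, limma). Both genes kept an adjusted p under 0.05 in each of the 6 fits with 1 library left out, in this comparison and in that with All gRNA. C1R was at -0.25 ± 0.07, its 3 libraries lying below No gRNA. The moderated test called 2 members higher and 0 lower, where 6.11% and 4.91% of all genes were called. The 2 targeted groups share their No gRNA libraries and are not independent.

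C1S and CFB moved by similar amounts with wider errors and did not pass in either comparison. C1S was at -0.31 ± 0.11 with All gRNA (adjusted p = 0.0919, limma) and -0.30 ± 0.11 with gRNA 4 (adjusted p = 0.101, limma). CFB was at 0.62 ± 0.20 and 0.51 ± 0.21 (adjusted p = 0.0760 and 0.150, limma). C3, the most abundant member, had log2 fold changes of 0.05 in both, with intervals from -0.05 to 0.15, and CD46 had intervals from -0.14 to 0.24 and from -0.10 to 0.29.

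No member passed TREAT in either SUM159 comparison, where it called 0.396% of all genes with All gRNA and 0.390% with gRNA 4, and 0 members had an unadjusted p under 0.05 by it. By the moderated test 5 members had an unadjusted p under 0.05 in each, and edgeR's quasi-likelihood test called 3 and 2 members after adjustment. No share of all genes stands beside the unadjusted and edgeR counts, and nothing is read from them. C1R stood far above wild type in targeted SUM159 cells, at 10.3 times its wild type mean with All gRNA and 11.0 times with gRNA 4, beside 13.0 times with No gRNA. C1S was at 9.29 and 9.39 times its wild type mean, beside 11.5 times with No gRNA. Of the 11 other complement genes tested, the moderated test called 1 higher and 2 lower with All gRNA, and 0 higher and 1 lower with gRNA 4. CLU (clusterin, an inhibitor of the terminal pathway) fell by 1.10 on the log2 scale with All gRNA (adjusted p = 3.49e-06, limma) and by 1.26 with gRNA 4 (adjusted p = 1.44e-06, limma), from 113 CPM to 52.5 and 47.2 CPM. ITGAM, a chain of complement receptor 3, fell by 3.04 with All gRNA (adjusted p = 0.0324, limma) from 1.68 CPM to 0.289 CPM, and with gRNA 4 it was at -2.29 (adjusted p = 0.0661, limma). C5AR2, a receptor for C5a, rose by 0.99 with All gRNA (adjusted p = 0.00853, limma) and is named after its values were seen.

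All gRNA and gRNA 4 cells of SUM159 were also set against each other, and no member differed by the tests used. TREAT called 0% of all genes, and the moderated test 0.561% higher and 0.383% lower. Of the 7 members, 0 had an unadjusted p under 0.05 by TREAT and 1 by the moderated test, CD59, at 0.16 ± 0.05 (adjusted p = 0.233, limma). edgeR's quasi-likelihood test called 0. The unadjusted and edgeR counts have no share of all genes beside them, and nothing is read from them. The interval of the C1R difference ran from -0.24 to 0.06, that of C1S from -0.23 to 0.21 and that of CD55 from -0.12 to 0.03 on the log2 scale.

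The targeted MDA-MB-231 sets against No gRNA are again contrasts that chose the list, and are described without a p-value. In set 1 the log2 fold change of C1R was -2.01 ± 0.23, and C1R was the one member called by TREAT, beside 1.47% of all genes. That count became 0 when any 1 of the 6 libraries of these groups was left out, with C1R between -2.07 and -1.95 on the log2 scale. CFB was at -0.58, C1S at -0.51, CD55 at -0.48 and CD46 at -0.40, while C3, SERPING1 and CD59 lay between 0.13 and 0.15. The moderated test called 1 member higher, CD59, and 3 lower, C1R, CD46 and CD55, beside 20.4% and 17.3% of all genes.

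Set 2 showed lower levels of more members. C1R was at -2.78 ± 0.27, CFB at -2.16 ± 0.29 and CD55 at -1.68 ± 0.04 on the log2 scale, and TREAT called these 3, beside 4.14% of all genes. C1S stood at -2.14 ± 0.42, SERPING1 at -0.81 ± 0.37, C3 at -0.73 ± 0.07 and CD59 at -0.39 ± 0.03, and CD46 alone was above No gRNA, at 0.44 ± 0.05. The moderated test called 1 member higher and 6 lower, beside 27.3% and 25.1% of all genes. As a share of the No gRNA mean, C1R was at 24.7% in set 1 and 15.8% in set 2, C1S at 68.4% and 22.3%, CFB at 67.7% and 22.3%, CD55 at 71.8% and 30.9%, and C3 at 111% and 60.1%.

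Against wild type cells the 2 sets stood apart. In set 2, C1R was at 1.19 times the wild type mean, but at 0.872 times without set 2 replicate 2 and 1.52 times without set 2 replicate 3. CD46 was at 0.955, CD59 at 0.957 and CD55 at 0.661 times in set 2, while CFB remained at 1.90 and C3 at 1.48 times. In set 1, C1R was at 1.87 times the wild type mean, CFB at 5.79 and C3 at 2.74 times. C1R in set 1 was thus nearer to wild type than CFB and C3 were.

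Among the 12 other complement genes tested in MDA-MB-231, the moderated test called 1 higher and 5 lower in set 1, and 0 higher and 9 lower in set 2. CLU averaged 40.01 CPM with No gRNA, 18.3 CPM in set 1 and 12.2 CPM in set 2. In the same order the means of CFP were 39.9, 26.7 and 11.5 CPM, those of C5, from which the terminal pathway starts, 4.17, 1.49 and 0.693 CPM, and those of C4BPB 16.9, 6.51 and 10.6 CPM. C4A and C4B, which could not be told apart, stood at 0.834 and 0.713 CPM with No gRNA and at 0.295 and 0.230 CPM in set 2. C1RL was at 7.06 CPM with No gRNA, 8.84 CPM in set 1 and 1.64 CPM in set 2, so that its level and that of the overlapping C1R did not move together in set 1. CR2 (complement receptor 2) was the exception upward in set 1, at 5.13 CPM against 0.366 CPM.

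Of the NF-kappaB list, 5 genes were higher and 10 lower in set 1, and 0 were higher and 17 lower in set 2 by the moderated test. CCL20 was the lowest in set 2 at a log2 fold change of -3.44. The interferon list had 4 higher and 5 lower in set 1 and 1 higher and 8 lower in set 2, with GBP2 the lowest in set 2 at -2.55, and their part in the complement values was not tested. In SUM159 the interferon list had 0 higher and 5 lower with All gRNA and 0 higher and 4 lower with gRNA 4, and the NF-kappaB list had 7 and 10 higher and 0 lower. Beside these counts, 20.4% of all genes were higher and 17.3% lower in set 1, and 27.3% and 25.1% in set 2. The SUM159 shares were 5.93% and 4.89% with All gRNA and 6.11% and 4.91% with gRNA 4.

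The sets were compared directly, a contrast not used in choosing the list. Most members differed, with set 2 lower for all but CD46. CD55 was lower in set 2, with a log2 fold change of -1.20 ± 0.04, past TREAT's threshold (adjusted p = 0.0106, limma TREAT), with 91.1 CPM in set 2 and 211 CPM in set 1. It was the one member called, beside 3.07% of all genes. The call was lost without set 2 replicate 3 (adjusted p = 0.0707, limma TREAT), set 1 replicate 1 (0.0694) or set 1 replicate 2 (0.0819), with values between -1.17 and -1.16. Against 0, CD55 had an adjusted p of 9.87e-10 by limma's moderated test and at most 3.13e-08 with 1 library left out.

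The moderated test called 1 member higher and 6 lower in set 2, beside 25.2% and 26.3% of all genes. CD46 was higher, at 0.84 ± 0.05 (adjusted p = 2.02e-07, limma). CD59 was lower, at -0.53 ± 0.03 (adjusted p = 7.27e-08, limma), and C3 at -0.88 ± 0.07 (adjusted p = 1.75e-06, limma). CFB was lower at -1.58 ± 0.31 (adjusted p = 0.00118, limma) and C1S at -1.63 ± 0.44 (adjusted p = 0.00930, limma). Each of these kept its call in all 6 fits with 1 library left out. SERPING1, at -0.95 ± 0.37, passed narrowly (adjusted p = 0.0497, limma), and of 10 alternative fits 2 called it, with adjusted p between 0.0207 and 0.164.

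C1R, the member with the lowest log2 fold change against No gRNA in both sets, is only described between them. It was at -0.77 ± 0.31, with an interval from -1.38 to -0.16. The rule that chose the list used its level in both sets, so no p-value is given. With 1 library left out its value ranged from -1.165 to -0.313. ZEB1 averaged 5.36 CPM in set 1 and 4.74 CPM in set 2 (log2 fold change -0.18, adjusted p = 0.528, limma). Of the 12 other complement genes, 1 was higher and 5 lower. They included C1RL at -2.73 (adjusted p = 0.000229), CR2 at -2.29 (adjusted p = 0.0132) and CFP at -1.21 (adjusted p = 8.39e-06, limma moderated tests).

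**Figure D5:**
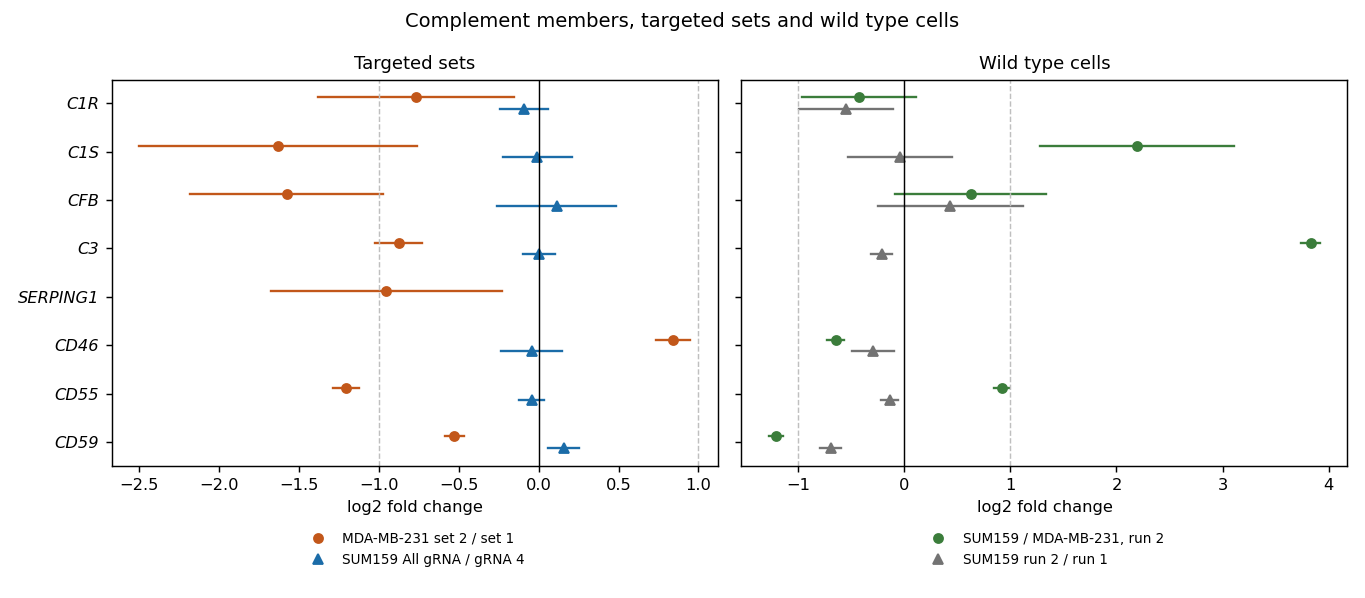
Log2 fold change (linear axis of log2 units) of the members in the comparisons of targeted groups with each other (left) and of wild type cells (right), with lines of 1.96 SE and dashed lines at 1 either way. CD55 was at -1.20 and CD46 at 0.84 for set 2 over set 1, and C3 was at 3.83 for SUM159 over MDA-MB-231.

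Wild type SUM159 and MDA-MB-231 cells of run 2 showed the difference between the lines before transduction. C3 was 14.2-fold higher in SUM159, at 1705, 1749 and 1762 CPM against 114, 125 and 126 CPM (log2 fold change 3.83 ± 0.04, adjusted p = 8.74e-08, limma TREAT). CD59 was lower in SUM159, at 245, 255 and 262 CPM against 571, 582 and 594 CPM (log2 fold change -1.21 ± 0.03, adjusted p = 0.00146, limma TREAT). Those were the 2 members called, beside 29.1% of all genes. C1S at 2.19 ± 0.47 (adjusted p = 0.00379, limma moderated test) and CD55 at 0.92 ± 0.04 (adjusted p = 7.52e-07, limma) were also higher in SUM159. CD46 was lower, at -0.65 ± 0.04 (adjusted p = 5.79e-06, limma). The moderated test thus called 3 members higher and 2 lower, beside 37.0% and 38.6% of all genes. CFB, at 0.62 ± 0.36 (adjusted p = 0.157, limma), did not pass. C1R was at -0.43 ± 0.27. Its level in these MDA-MB-231 libraries was used to choose the list, so no p-value is given. Of the 12 other complement genes tested, the moderated test called 7 higher and 4 lower in SUM159. C1RL was higher at 30.5 against 2.83 CPM, as were MASP1, C3AR1, C5AR2, CFD and CLU at log2 fold changes between 1.20 and 5.10, and C4BPB at 0.0894 against 34.4 CPM, CFP at 0.114 against 14.9 CPM, ITGB2 at 0.532 against 11.6 CPM and SUSD4 at 0 against 1.81 CPM were lower (adjusted p at most 0.00270 for each, limma).

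SUM159 wild type cells of run 2 and run 1 gave the size of change between separate samples of the same line. The run and anything else that differed between these samples cannot be told apart. No member was called by TREAT, beside 6.47% of all genes, and 0 had an unadjusted p under 0.05 by it. The moderated test called 0 higher and 4 lower in run 2, beside 28.9% and 30.0% of all genes. By it 5 members had an unadjusted p under 0.05, and edgeR's quasi-likelihood test called 5. Unadjusted and edgeR counts are given without a share of all genes, and nothing is read from them. CD59 differed most, at -0.69 ± 0.05 (adjusted p = 4.56e-08, limma moderated test). C3 was at -0.21 ± 0.05 (adjusted p = 0.00265, limma), CD46 at -0.30 ± 0.10 (adjusted p = 0.0211, limma) and CD55 at -0.14 ± 0.04 (adjusted p = 0.00952, limma). The CD46 call was lost without run 2 replicate 1, run 2 replicate 2 or run 1 replicate 1 (adjusted p up to 0.0894, limma), and the CD55 call without run 2 replicate 1 (0.0504). The difference of CD59 between runs exceeded its difference between targeted and No gRNA cells of SUM159, which were all in run 1. C1R, at 1.65, 2.78 and 3.34 CPM in run 2, was at -0.55 ± 0.23. Its run 1 level was used to choose the list, so no p-value is given. C1S at -0.04 ± 0.25 and CFB at 0.44 ± 0.35 did not pass (adjusted p = 0.911 and 0.299, limma). Of 11 other complement genes, CFD was higher in run 2, at 1.56 against 0.294 CPM, and CLU at 50.5 against 104 CPM and ITGAM at 0.0122 against 0.678 CPM were lower (adjusted p at most 0.00755 for each, limma moderated test).

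The genes whose levels followed C1R most closely were ranked by Pearson's r of log2 CPM over the 27 libraries, which share lines, vectors and runs, among 13774 genes tested in both lines. The 5 highest were CTSL at 0.911, RARG at 0.910, ZNF581 and IFITM1 at 0.907 and ZNF277 at 0.90. CTSL, the lysosomal protease cathepsin L, averaged 66.6 and 114 CPM in SUM159 wild type cells of run 1 and No gRNA cells, and 60.7 and 108 CPM in MDA-MB-231. IFITM1, an interferon-induced antiviral membrane protein, averaged 26.3 and 85.7 CPM in those SUM159 groups and 23.97 and 61.4 CPM in MDA-MB-231, with 54.3 CPM in set 1 and 31.8 CPM in set 2. CTSL averaged 84.1 CPM in set 1 and 61.9 CPM in set 2. With gRNA 4 and All gRNA in SUM159, CTSL averaged 151 and 157 CPM and IFITM1 114 and 99.0 CPM. Both genes were thus above No gRNA there, whereas C1R was below it. Among the members, CFB ranked 20th at 0.845 and C1S 21st at 0.843, followed by CD55 at 0.709, C3 at 0.495, CD46 at 0.459 and CD59 at -0.09.

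Within a line, over 12 libraries each, C1R and C1S had an r of 0.993 in SUM159 and 0.732 in MDA-MB-231. For C1R and CFB the values were 0.934 and 0.816, and for C1R and CD55 0.755 and 0.838. CD46 followed C1R in SUM159 at 0.867 and ran against it in MDA-MB-231 at -0.49, and for CD59 the values were -0.40 and 0.608. These coefficients are a description of libraries that fall into few groups.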

How the data were processed

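The authors sequenced RNA of both lines as single-end reads. The deposited table, used whole, holds estimated counts that the authors made with Salmon (GRCh38, per the submitters' processing notes) and tximport with length-scaled TPM, not normalized between libraries. Salmon's version, the annotation and the strand setting are not given in the sources used here.

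Of 57165 gene identifiers, 56347 matched GENCODE symbols. The 9 members and the other gene lists were chosen with earlier results of these data known. Unrounded counts entered voom (R 4.3.3, limma 3.58.1, 0.5 added to each count) with TMM scaling (edgeR 4.0.16), after filterByExpr at a count of 10, in one fit per line, or in one of 15 SUM159 libraries for the run comparison and one of 6 wild type libraries for the line comparison. The main test was TREAT, which the study's methods name without a threshold, and the log2 fold change of 1 was set here. P-values were two-sided and adjusted over all genes by Benjamini-Hochberg, with calls under 0.05, and the moderated test against 0 stands beside TREAT. With 3 libraries a group an exact permutation test cannot go below p = 0.1, so none was used. Counts rounded to whole numbers entered edgeR and DESeq2 1.42.0. The steps were tested on simulated data. Intervals are 1.96 SE. A gene was taken as at the floor in a group where no library had over 3 counts.

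Named genes are the members in every comparison, other complement genes with a moderated adjusted p under 0.05 and a log2 fold change over 1 either way, the 5 genes most like C1R over all libraries, ZEB1, the line markers, and the highest or lowest of the interferon and NF-kappaB lists. Some genes that meet this rule are not reported here. Alternatives were other tests, scalings and filters, fits of only the libraries compared, wild type as the control, the replicate number as a block and each library left out. The moderated test under these settings was added after the data were seen. Libraries of a group differed by more than sampling noise, with a chi-square per degree of freedom of 6.95 or more for every pair.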

Additional observations from a re-analysis of the deposited data

Results flagged for a closer look

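CD46 and CD59 went opposite ways in the lines with the vector, every No gRNA library of one line being above its wild type libraries of the same run and every one of the other line below. For CD59 this holds against run 1 only, since the SUM159 No gRNA libraries, at 294 to 324 CPM, lay above the SUM159 wild type libraries of run 2, at 245 to 262 CPM. The log2 fold change in SUM159 minus that in MDA-MB-231 was 0.99 for CD46 and -0.70 for CD59. CD55 was higher than No gRNA in every targeted SUM159 library and lower in every library of sets 1 and 2, and its log2 fold change with All gRNA in SUM159 minus that of set 1 in MDA-MB-231 was 0.84. These differences between the lines were not tested. The lines were in different runs apart from wild type cells, so line and run cannot be told apart for these differences. With the vector, the moderated test called 21.0% of all genes higher and 21.9% lower in SUM159, and 26.2% and 27.6% in MDA-MB-231. The share of all genes that went opposite ways in the lines was not counted, so nothing is read from these members doing so.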

How the results depend on the processing

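With 3 libraries a group and few reads for C1S, CFB and SERPING1 in wild type MDA-MB-231 cells, modest changes of these genes had wide intervals, and CFI could not be tested. The replicate numbers did not pair the libraries: same-numbered libraries of compared groups had correlations of their deviations between -0.083 and 0.053 over 30 pairs, 0 of them over 0.1. The replicate block took the count of members called by TREAT from 1 to 0 in set 1 against No gRNA and left the other 9 counts as they were. By the moderated test the block added C1S with All gRNA and with gRNA 4 (adjusted p = 0.0444 and 0.0471, limma), for 4 and 3 members called. The settings of the moderated test were chosen after the data were seen.

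The number of members called depended on the test. Against 0, limma's moderated test called 7 and 8 members in the SUM159 and MDA-MB-231 vector comparisons, 3 with All gRNA, 2 with gRNA 4, 4 in set 1, 7 in set 2, 7 between the sets, 4 between runs and 5 between lines. edgeR's quasi-likelihood test called 7, 8, 3, 2, 4, 7, 6, 5 and 5 in the same order. The shares of all genes called by limma's moderated test are given above with each comparison. For edgeR's counts and for counts of unadjusted p-values no such share is given, and nothing is read from them. edgeR's glmTreat called 4 members in the MDA-MB-231 vector comparison, where TREAT called 2. Without the filter on low counts TREAT called 0 in set 1 and 0 between the sets, and with only the libraries of the sets it called 0 between them. With 1 library left out TREAT called 0 in set 1 against No gRNA in each of 6 fits and 0 to 1 between the sets. With wild type as the control, 3 members were called with All gRNA and 3 with gRNA 4, namely C1R, C1S and CFB in each. That setting takes in the rise of C1R with the vector that chose the list. No share of all genes stands beside these counts, and nothing is read from them. The moderated test with upper quartile scaling called 2 members between runs, where it called 4 with TMM.

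Directions turned for small values, and where the control was another one. With wild type as the control, C1R was at 3.34 and 3.44 and C1S at 3.22 and 3.23 with All gRNA and gRNA 4, and CD59 at -0.0978 with gRNA 4. Between All gRNA and gRNA 4, C3 was at -0.0033 with DESeq2, -0.0038 with its size factors and -0.00105 without the filter. With 1 library left out, values in that comparison ranged from -0.0611 to 0.0847 for C1S, from -0.0257 to 0.0459 for C3 and from -0.132 to 0.0662 for CD46. Against No gRNA, CD46 ranged from -0.0189 to 0.101 with All gRNA and from -0.0127 to 0.186 with gRNA 4. C1S between runs was at 0.0402 with upper quartile scaling and ranged from -0.191 to 0.187 with 1 library left out. No other setting turned a direction or moved a count of members called by over 1.5 times.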
